A study of Mus musculus with 12 samples.

Results

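Natural killer (NK) receptors, their signalling adaptors and the Cd8 genes were described in mouse helper T cells that lack the glucose transporter GLUT3. The group holds 10 genes of the 45703 in each deposited table, taken by symbol: the receptor genes Klrk1, Klrc1, Klrc2, Klrd1 and Klrb1c, the adaptor genes Tyrobp, Fcer1g and Hcst, and the co-receptor genes Cd8a and Cd8b1. All 10 symbols were found in the tables. RNA was measured in 12 libraries of CD4+ T cells, 3 for each of 4 groups: GLUT3-deficient Th17 cells, wild-type Th17 cells, GLUT3-deficient Th1 cells and wild-type Th1 cells. Th17 cells are the helper lineage that makes interleukin 17, and Th1 cells the one that makes interferon gamma. Naive cells had been activated through CD3 and CD28 and polarized with cytokines in culture for 3 days, on the C57BL/6 background. The deficient genotype is labelled Slc2a3-fl/fl Cd4-cre: Slc2a3, the gene of GLUT3, carries floxed alleles and Cre is driven by the Cd4 promoter, which is active in thymocytes before the CD4 and CD8 lineages part. The controls are labelled only as wild type, so whether they carry Cre or floxed alleles is not given in the sources used here. The labels do not say whether replicates were separate animals or cultures, so a p-value sets a difference against the spread of 3 libraries a group and no wider source of variation.

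Klrk1 encodes NKG2D, an activating receptor that binds stress-induced relatives of MHC class I. Klrd1 encodes CD94, the partner chain of NKG2A (Klrc1, inhibitory) and NKG2C (Klrc2, activating), which read the non-classical MHC molecule Qa-1. The activating receptors have no signalling tail of their own and rely on DAP10 (Hcst), DAP12 (Tyrobp) or the Fc receptor gamma chain (Fcer1g). Klrb1c encodes NK1.1, a marker of NK and NKT cells. Cd8a and Cd8b1 encode the chains of the co-receptor of cytotoxic T cells, which helper cells shut off as they develop. These receptors are best known from NK cells and activated CD8 T cells.

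The libraries held 16596283 to 28496606 reads. A gene of 1 kb with 3 reads would stand at 0.190 to 0.437 TPM (transcript abundance per length, adjusted so that every library adds up alike), which covers counting error only. Slc2a3 had 5.14, 18.8 and 3.31 TPM in GLUT3-deficient Th17 libraries, against 379, 109 and 44.6 TPM in wild-type Th17 libraries, and 6.79, 4.49 and 7.97 TPM in GLUT3-deficient Th1 libraries, against 398, 95.6 and 64.7 TPM in wild-type Th1 libraries. It was lower in every GLUT3-deficient library, with log2 fold changes of -3.95 ± 0.847 (SE) in Th17 (limma adjusted p = 0.0369) and -4.23 ± 0.569 in Th1 cells (limma adjusted p = 0.000901). The Th17 call was lost in 7 of 13 alternatives, a pseudocount of 5 TPM, no filter and leaving out any library but GLUT3-deficient replicate 2. GLUT3-deficient Th17 replicate 2 stood apart, with a median absolute log2 difference of 0.626 from its group, against 0.168 to 0.433 for the other 11 libraries. Of the T cell markers, Trac (the T cell receptor alpha chain, not particular to helper cells) was at 1144 to 1946 TPM and Cd4 at 44.8 to 335 TPM over the 12 libraries.

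Of the 9 members tested, 5 were higher and 0 lower in GLUT3-deficient than in wild-type Th17 cells, and 6 were higher and 2 lower in GLUT3-deficient than in wild-type Th1 cells. Over all genes tested, 7.3% passed in Th17 cells (4.6% higher, 2.7% lower) and 31.3% in Th1 cells (17.6% higher, 13.7% lower). Klrb1c was too low to be tested in any comparison. The members that rose in both lineages were Klrk1, Klrc1, Klrc2, Tyrobp and Fcer1g, Klrd1 rose in Th1 cells, and Cd8a and Cd8b1 fell in Th1 cells. The median log2 fold change of the 9 was 1.49 in Th17 cells, against 0.04 over all genes tested, and 1.72 in Th1 cells, against 0.03. Tyrobp in Th17 cells passed the filter (at least 1 TPM in 3 or more libraries) through its GLUT3-deficient libraries, and Cd8a in Th1 cells through its wild-type libraries, so these medians and counts are a description of the genes that passed. In RNA from bulk cultures, more cells with a transcript and more transcript per cell cannot be told apart.

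**Figure D1:**
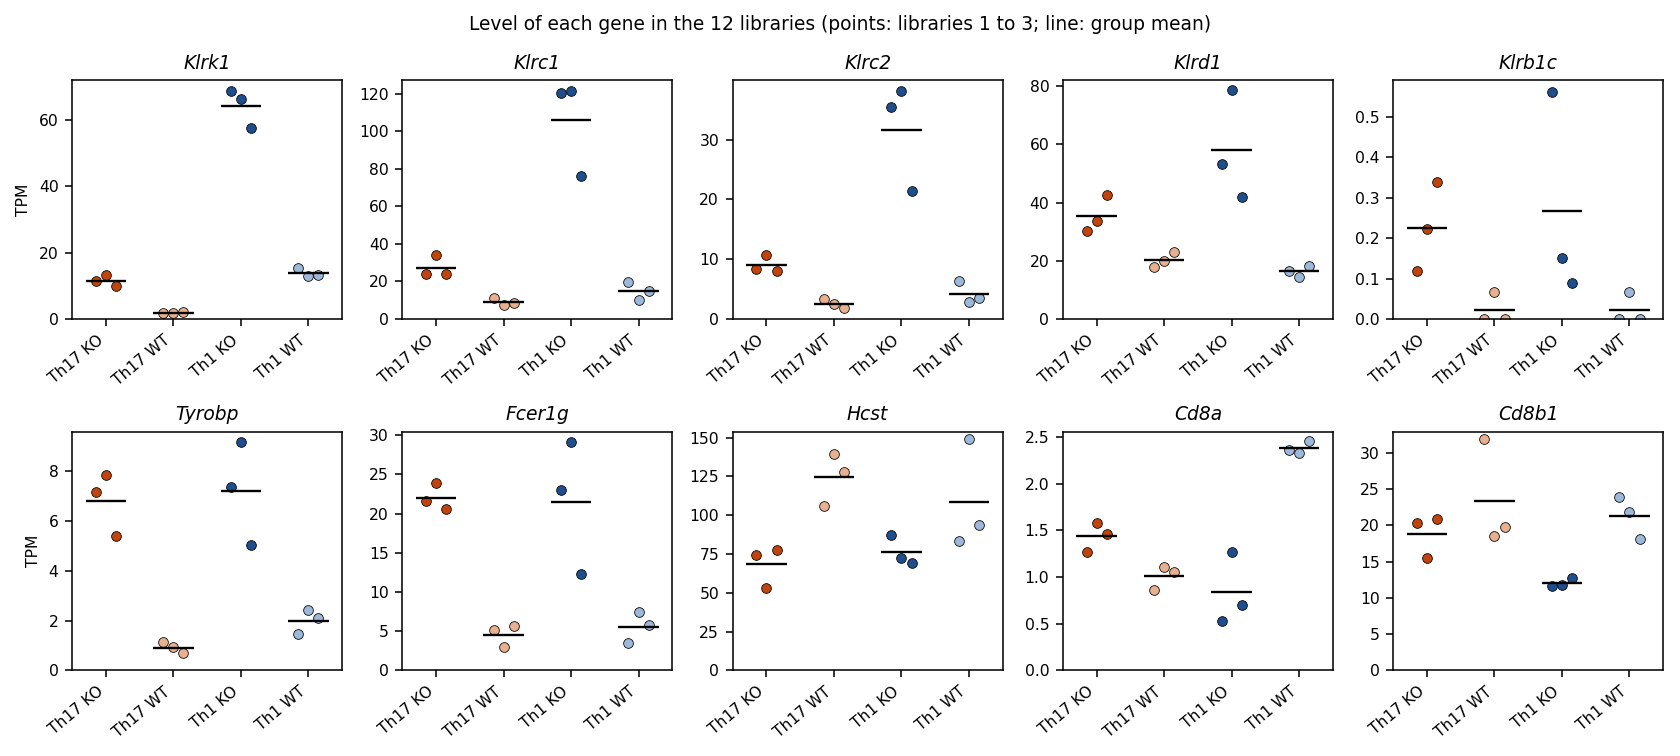
Level in TPM (vertical axes, each with its own scale) of the 10 genes in the 12 libraries: points are the 3 libraries of a group, lines the group mean. Klrk1, Klrc1 and Klrc2 stand highest in GLUT3-deficient Th1 cells, at 57.4 to 68.6, 76.5 to 121.5 and 21.4 to 38.1 TPM, while the mean of Hcst is lowest in GLUT3-deficient Th17 cells.

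The 4 receptor genes that were tested lie close together in the NK gene complex of chromosome 6, with Klrc3 between Klrk1 and Klrc2. In build GRCm38.p6 they are Klrd1 (chr6:129588092-129598775, plus strand), Klrk1 (chr6:129610323-129623903, minus strand), Klrc2 (chr6:129649602-129660737, minus strand) and Klrc1 (chr6:129666015-129682852, minus strand), with Klrb1c further off (chr6:128778485-128788641, minus strand). They are 5.98 to 6.86 Mb from Slc2a3, whose own locus was targeted. Sequences before the start sites of 3 of them are shown because these genes rose together in both lineages, and that of Hcst for contrast. The windows are those of RefSeq on GRCm38.p6, from 250 bases before to 50 bases after a start site, which were at hand for 7 of the 10 members. Capitals mark matches, on either strand, to the Runx word TGTGGT or the AP-1 word TGANTCA. The positions are chr6:129623815-129624114 for Klrk1, chr6:129678924-129679223 for Klrc1, chr6:129660547-129660846 for Klrc2 and chr7:30419805-30420104 for Hcst, all on the minus strand. The Klrc1 start site used lies 3879 bases inside the end of the gene body, and the Klrc2 window is the first of 2 in the table.
Klrk1: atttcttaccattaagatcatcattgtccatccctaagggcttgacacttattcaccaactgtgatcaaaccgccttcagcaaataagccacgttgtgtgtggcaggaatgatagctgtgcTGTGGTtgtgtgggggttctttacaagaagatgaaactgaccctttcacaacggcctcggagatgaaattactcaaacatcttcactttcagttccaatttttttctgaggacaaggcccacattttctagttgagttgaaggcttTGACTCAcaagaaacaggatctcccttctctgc
Klrc1: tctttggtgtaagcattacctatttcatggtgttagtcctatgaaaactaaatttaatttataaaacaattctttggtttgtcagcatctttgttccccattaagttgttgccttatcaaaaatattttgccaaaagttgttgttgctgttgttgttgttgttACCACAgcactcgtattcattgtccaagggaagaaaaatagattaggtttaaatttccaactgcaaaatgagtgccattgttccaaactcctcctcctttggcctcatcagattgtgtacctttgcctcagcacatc
Klrc2: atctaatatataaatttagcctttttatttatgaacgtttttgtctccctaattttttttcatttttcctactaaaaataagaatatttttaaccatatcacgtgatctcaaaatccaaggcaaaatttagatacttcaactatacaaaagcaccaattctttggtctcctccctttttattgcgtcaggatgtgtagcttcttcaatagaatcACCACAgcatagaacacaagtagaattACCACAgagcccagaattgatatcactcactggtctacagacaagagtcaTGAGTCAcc
Hcst: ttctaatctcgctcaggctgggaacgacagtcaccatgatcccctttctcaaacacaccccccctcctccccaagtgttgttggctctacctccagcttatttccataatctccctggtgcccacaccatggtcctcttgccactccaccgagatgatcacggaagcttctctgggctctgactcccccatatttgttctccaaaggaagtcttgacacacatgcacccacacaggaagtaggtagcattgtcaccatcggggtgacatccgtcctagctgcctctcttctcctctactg
The Klrk1 window held 1 Runx and 1 AP-1 match, the Klrc1 window 1 Runx match, the Klrc2 window 2 Runx and 1 AP-1 matches, and the Hcst window neither. Of the other windows at hand, those of Fcer1g and Klrb1c each held 1 Runx match and that of Cd8a none. Among 32851 windows of the same length, 16.8% held the Runx word, 7.80% the AP-1 word and 13.7% the T-box word AGGTGT, which was in none of the 7 members' windows. No matches overlapped. These are matches of letters, not sites of binding.

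Klrk1 rose in both lineages. GLUT3-deficient Th17 libraries had 11.5, 13.2 and 9.99 TPM of Klrk1, wild-type Th17 libraries 1.88, 1.95 and 2.04 TPM. GLUT3-deficient Th1 libraries had 68.6, 66.4 and 57.4 TPM, wild-type Th1 libraries 15.4, 13.1 and 13.1 TPM. Every GLUT3-deficient library was above every wild-type library of its lineage, and replicates lay close together. On the log2(TPM + 1) scale the change was 2.08 ± 0.241 in Th17 cells (limma adjusted p = 0.00586) and 2.13 ± 0.151 in Th1 cells (limma adjusted p = 6.17e-05). The difference between the lineages in this change was -0.05, with a 95% interval of -0.59 to 0.49 (limma adjusted p = 1.0), and its sign and size depended on the scale, at -0.62 with a pseudocount of 5 TPM and 0.30 with voom on reads recovered from the TPM. This scale understates the change of low genes, so the ratio of mean TPM was larger, at 5.91 in Th17 cells and 4.62 in Th1 cells.

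Klrc1, the inhibitory NKG2A chain, rose in both lineages. The Th17 values were 23.9, 34.0 and 23.9 TPM with GLUT3 deleted and 11.4, 7.47 and 8.36 TPM in wild type. The Th1 values were 120.6, 121.5 and 76.5 TPM with GLUT3 deleted and 19.7, 10.1 and 14.97 TPM in wild type. The groups did not overlap in either lineage, and the spread was widest in GLUT3-deficient Th1 cells, where replicate 3 was the lowest. The log2 fold change was 1.49 ± 0.274 in Th17 cells (limma adjusted p = 0.0231) and 2.77 ± 0.265 in Th1 cells (limma adjusted p = 0.000215).

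Klrc2, the activating NKG2C chain, followed Klrc1 at a lower level. Its Th17 libraries stood at 8.40, 10.7 and 7.99 TPM in GLUT3-deficient cells and at 3.29, 2.44 and 1.84 TPM in wild-type cells. Its Th1 libraries stood at 35.5, 38.1 and 21.4 TPM in GLUT3-deficient cells and at 6.29, 2.88 and 3.52 TPM in wild-type cells. Again no GLUT3-deficient library overlapped a wild-type library of its lineage. The log2 fold change was 1.52 ± 0.274 in Th17 cells (limma adjusted p = 0.022) and 2.66 ± 0.289 in Th1 cells (limma adjusted p = 0.00037).

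The ratio of Klrc1 to Klrc2 hardly moved while their levels did. Per library it ran from 2.84 to 3.19 in GLUT3-deficient and from 3.06 to 4.54 in wild-type Th17 cells, and from 3.19 to 3.57 in GLUT3-deficient and from 3.12 to 4.26 in wild-type Th1 cells. The inhibitory chain was thus the more abundant per length in all 12 libraries. The 2 genes share sequence, and their values are not fully separate: of the 75-base words in Klrc1 transcripts, the length of the reads, 25.0% also occur in another gene, 508 of 514 of them in Klrc2. Of those in Klrc2 transcripts 20.5% do, and the longest stretch the 2 share is 202 bases. These are GENCODE transcripts, with 3358 words for Klrc2, while the deposited values rest on a Klrc2 model of 1025 exon bases. The shared part of the counted models was not measured and can be larger than these shares. How reads that match several genes were counted is not given in the sources used here. Klrc3, a close relative, averaged 0.432 TPM in GLUT3-deficient and 0.0287 TPM in wild-type Th17 cells, and 1.08 TPM in GLUT3-deficient and 0.152 TPM in wild-type Th1 cells, too low to be tested.

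Klrd1, the CD94 chain that NKG2A and NKG2C need to reach the surface, was never below 14.5 TPM in any library. Its Th17 libraries stood at 30.3, 33.6 and 42.4 TPM in GLUT3-deficient cells, against 18.0, 19.8 and 22.9 TPM in wild-type cells. Its Th1 libraries stood at 53.4, 78.8 and 41.9 TPM in GLUT3-deficient cells, against 16.6, 14.5 and 18.2 TPM in wild-type cells. The groups did not overlap in either lineage, with the smaller gap in Th17 cells. There the log2 fold change of 0.77 ± 0.231 missed the threshold (limma adjusted p = 0.0943, 95% interval 0.23 to 1.31), while in Th1 cells it was 1.72 ± 0.229 (limma adjusted p = 0.000874). The Th17 call was made without GLUT3-deficient replicate 2 and in the model of all 12 libraries, at adjusted p down to 0.0369. Klrc1 per Klrd1 was 0.563 to 1.01 in GLUT3-deficient and 0.365 to 0.634 in wild-type Th17 cells, and 1.54 to 2.26 in GLUT3-deficient and 0.695 to 1.18 in wild-type Th1 cells.

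Klrb1c, the NK1.1 gene, stayed close to the detection limit. In Th17 cells it had 4, 4 and 14 reads in GLUT3-deficient libraries and 0, 2 and 0 reads in wild-type libraries. In Th1 cells it had 23, 4 and 2 reads in GLUT3-deficient libraries and 0, 2 and 0 reads in wild-type libraries. The highest level was 0.562 TPM, in GLUT3-deficient Th1 replicate 1, and in Th1 cells GLUT3-deficient replicate 3 and wild-type replicate 2 had the same 2 reads, so the genotypes are apart in TPM there only through library size. Per library read, the summed reads were 10.1 times as many in GLUT3-deficient as in wild-type Th17 cells (exact 95% interval 2.48 to 88.6) and 12.3 times as many in Th1 cells (3.12 to 107), intervals that cover counting error only. Of its 75-base words in GENCODE transcripts, 13.2% also occur in Klrb1a, Klrb1b or Gm44511.

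**Figure D2:**
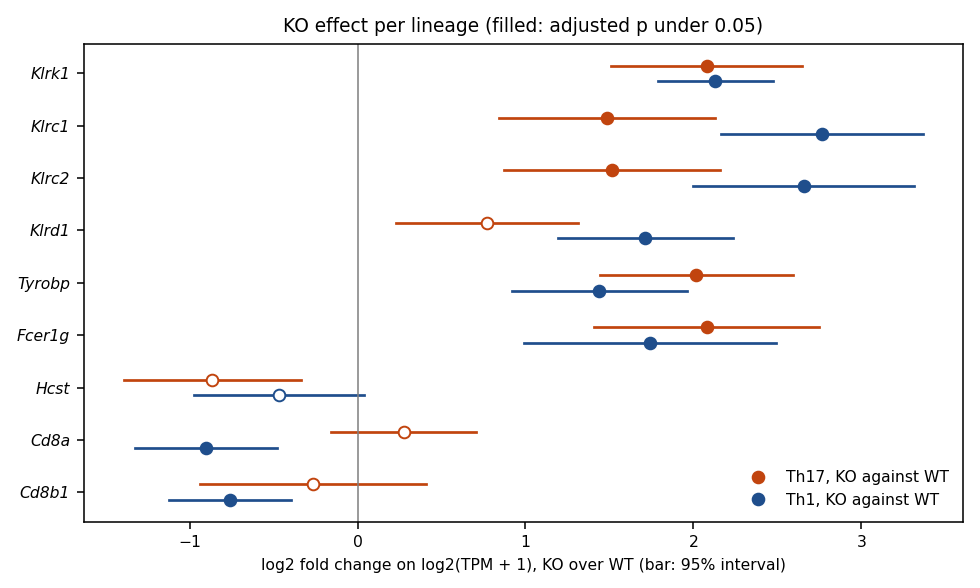
Log2 fold change of GLUT3-deficient over wild-type cells on log2(TPM + 1) (horizontal axis) for the 9 tested genes, Th17 above Th1 for each gene: bars are 95% intervals, filled points passed the adjusted p threshold of 0.05. Klrc1, Klrc2 and Klrd1 have the larger point in Th1 cells, and Cd8a lies at 0.28 in Th17 cells and at -0.90 in Th1 cells.

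The adaptors did not move as a group: Tyrobp and Fcer1g rose in both lineages, while Hcst did not. Tyrobp, the ITAM-bearing adaptor DAP12, stood at 7.15, 7.85 and 5.41 TPM in GLUT3-deficient Th17 libraries, against 1.14, 0.932 and 0.684 TPM in wild-type Th17 libraries. Its Th1 values were 7.38, 9.16 and 5.05 TPM with GLUT3 deleted and 1.45, 2.41 and 2.09 TPM in wild type. No libraries of the 2 genotypes overlapped, but the values rest on few reads, 133 over the GLUT3-deficient and 18 over the wild-type Th17 libraries, and 144 and 36 in Th1 cells. The log2 fold change was 2.02 ± 0.245 in Th17 cells (limma adjusted p = 0.00657) and 1.44 ± 0.229 in Th1 cells (limma adjusted p = 0.00192).

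Fcer1g, the gamma chain of Fc receptors and the adaptor of NK1.1, stood at 21.6, 23.9 and 20.6 TPM in GLUT3-deficient Th17 libraries, against 5.12, 2.99 and 5.62 TPM in wild-type Th17 libraries. Its Th1 values were 23.1, 29.2 and 12.4 TPM with GLUT3 deleted and 3.48, 7.52 and 5.78 TPM in wild type. The genotypes did not overlap, and GLUT3-deficient Th1 replicate 3 was the lowest of its group, as it was for all 5 receptor genes and Tyrobp. The log2 fold change was 2.08 ± 0.285 in Th17 cells (limma adjusted p = 0.00984) and 1.74 ± 0.331 in Th1 cells (limma adjusted p = 0.00449). Fcer1g per Tyrobp was 3.02 to 3.82 in GLUT3-deficient and 3.20 to 8.21 in wild-type Th17 libraries, and 2.45 to 3.18 in GLUT3-deficient and 2.40 to 3.11 in wild-type Th1 libraries. The genotypes overlapped in both lineages, and the wide range in wild-type Th17 cells rests on 5 to 7 Tyrobp reads a library.

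Hcst, the DAP10 adaptor of NKG2D, was the most abundant of the 10 genes in wild-type cells and did not pass the test in either lineage. Its Th17 libraries stood at 74.6, 53.0 and 77.7 TPM in GLUT3-deficient cells, against 106, 139 and 128 TPM in wild-type cells. Its Th1 libraries stood at 87.0, 72.4 and 69.4 TPM in GLUT3-deficient cells, against 83.1, 149 and 94.0 TPM in wild-type cells. In Th17 cells every GLUT3-deficient library was below every wild-type library, and in Th1 cells the groups overlapped. The log2 fold change was -0.86 ± 0.225 in Th17 cells (limma adjusted p = 0.0636) and -0.47 ± 0.223 in Th1 cells (limma adjusted p = 0.145). The call as lower was made in Th17 cells without GLUT3-deficient replicate 2 (and in the model of all 12 libraries, with the lowest adjusted p of 0.0231), and in Th1 cells without wild-type replicate 1, at adjusted p = 0.043.

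Tyrobp (chr7:30413782-30417582, plus strand) and Hcst (chr7:30417712-30419854, minus strand) are neighbours on chromosome 7, 130 bases apart, and their levels moved apart. Hcst per Tyrobp was 6.76 to 14.4 in GLUT3-deficient and 93.3 to 187 in wild-type Th17 libraries, and 7.90 to 13.7 in GLUT3-deficient and 45.0 to 61.7 in wild-type Th1 libraries. The library kit does not mark strand, but no annotated gene overlaps a member. Receptor and adaptor likewise moved apart for NKG2D: Klrk1 per Hcst was 0.129 to 0.250 in GLUT3-deficient and 0.0141 to 0.0177 in wild-type Th17 libraries, and 0.788 to 0.916 in GLUT3-deficient and 0.0878 to 0.185 in wild-type Th1 libraries. In none of these 4 pairings of genotypes did the ratios overlap. Summed over the 5 receptor genes, the level was 83.5 ± 8.81 TPM in GLUT3-deficient and 33.8 ± 1.85 TPM in wild-type Th17 cells (SD, n = 3 each), and 260 ± 56.1 TPM in GLUT3-deficient and 49.5 ± 8.68 TPM in wild-type Th1 cells. Over the 3 adaptors the sum was 97.3 ± 10.8 TPM in GLUT3-deficient and 130 ± 15.7 TPM in wild-type Th17 cells, and 105 ± 16.1 TPM in GLUT3-deficient and 116 ± 37.6 TPM in wild-type Th1 cells.

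**Figure D3:**
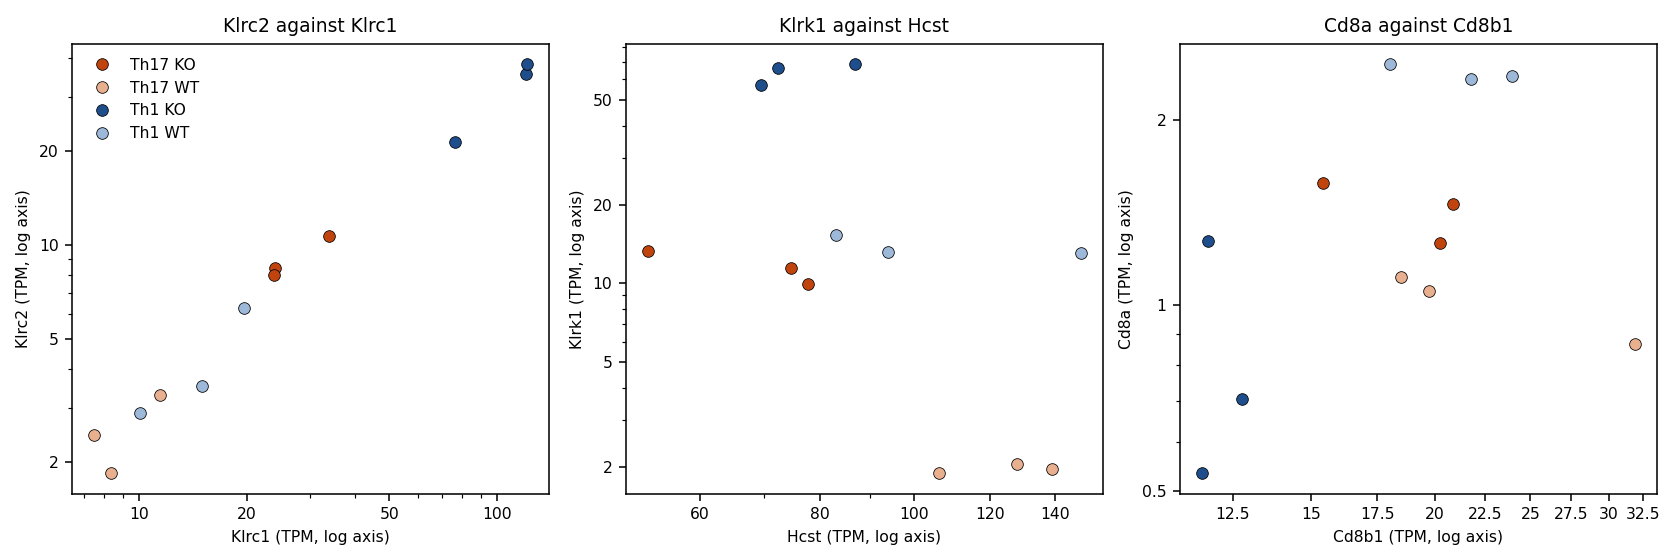
Level against level in TPM (log axes) for 3 pairs of members, 1 point per library. Klrc2 lies along a line with Klrc1 in all 12 libraries, GLUT3-deficient libraries lie above wild-type ones for Klrk1 against Hcst within each lineage, and Cd8a and Cd8b1 are both lower in GLUT3-deficient than in wild-type Th1 libraries.

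The Cd8 genes (Cd8a, chr6:71373427-71379171, and Cd8b1, chr6:71322788-71337492, both on the plus strand) lie 51.3 and 51.4 Mb from Slc2a3 and behaved differently from the NK receptors. Cd8a stood at 0.534, 1.27 and 0.705 TPM in GLUT3-deficient Th1 libraries, against 2.36, 2.33 and 2.46 TPM in wild-type Th1 libraries. Its Th17 values were 1.26, 1.58 and 1.46 TPM with GLUT3 deleted and 0.867, 1.11 and 1.06 TPM in wild type. The groups did not overlap in either lineage, with GLUT3-deficient cells below wild type in Th1 and above it in Th17 cells. Cd8a fell in Th1 cells by 0.90 ± 0.187 on the log2 scale (limma adjusted p = 0.00665), and in Th17 cells its log2 fold change was 0.28 ± 0.184 (limma adjusted p = 0.39). The difference between the 2 changes, Th17 minus Th1, was 1.18 ± 0.261 (limma adjusted p = 0.0835, unadjusted p = 0.000756), with a 95% interval of 0.61 to 1.75. These levels rest on 85 reads over the GLUT3-deficient and 232 over the wild-type Th1 libraries, and on 157 and 110 in Th17 cells.

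Cd8b1, the beta chain, stood at 11.6, 11.8 and 12.8 TPM in GLUT3-deficient Th1 libraries, against 24.0, 21.8 and 18.1 TPM in wild-type Th1 libraries. Its Th17 values were 20.3, 15.4 and 20.9 TPM with GLUT3 deleted and 31.9, 18.5 and 19.8 TPM in wild type. The genotypes did not overlap in Th1 cells and overlapped in Th17 cells. Cd8b1 fell in Th1 cells by 0.76 ± 0.161 on the log2 scale (limma adjusted p = 0.00738), and in Th17 cells its log2 fold change was -0.27 ± 0.286 (limma adjusted p = 0.597). Per length, the beta chain was 7.33 to 36.8 times as abundant as the alpha chain in all 12 libraries. Cd4 per Cd8a was 55.1 to 140 in GLUT3-deficient and 19.2 to 22.9 in wild-type Th1 libraries, and 46.6 to 212 in GLUT3-deficient and 57.5 to 83.9 in wild-type Th17 libraries.

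Between the lineages 3 receptor genes were lower in Th17 than in Th1 cells when GLUT3 was deleted and 1 in wild type, while no adaptor passed the test. The lineages stand in separate tables, and TPM is scaled within each library, so these levels are set across tables with no scaling in common. In GLUT3-deficient cells Klrk1 (log2 fold change -2.38 ± 0.175, Th17 over Th1, limma adjusted p = 7.82e-06), Klrc1 (-1.91 ± 0.277, limma adjusted p = 0.00112) and Klrc2 (-1.67 ± 0.295, limma adjusted p = 0.00444) were lower, 3 of the 9 tested, with none higher. Over all genes tested 5.91% passed, 2.56% as lower and 3.35% as higher. In wild-type cells 2 of the 9 were lower and none higher, where 3.63% of all genes passed, 1.78% as lower and 1.85% as higher. They were Klrk1 (-2.33 ± 0.175, limma adjusted p = 1.14e-05) and Cd8a (-0.75 ± 0.185, limma adjusted p = 0.0462). The call of Cd8a was lost in 12 of 18 alternatives, at adjusted p up to 0.151, among them without GLUT3-deficient Th17 replicate 1 or 3, any wild-type Th17 library, GLUT3-deficient Th1 replicate 1 or 3, or any wild-type Th1 library. The libraries of the lineages did not overlap for 4 of the 9 in GLUT3-deficient cells, against 29.7% of all genes, and for 3 of the 9 in wild-type cells, against 26.7%. With another scaling (median of ratios), the share of all calls that were higher in Th17 cells was 45.5%, against 56.7%, in GLUT3-deficient cells and 37.2%, against 51.0%, in wild-type cells. Klrk1 stood in the order GLUT3-deficient Th1, wild-type Th1, GLUT3-deficient Th17 and wild-type Th17, with means of 64.1, 13.9, 11.6 and 1.96 TPM, of which the middle 2 overlapped. For Klrc1 and Klrc2 GLUT3-deficient Th17 cells stood above wild-type Th1 cells without overlap, at 27.2 and 14.9 TPM and at 9.01 and 4.23 TPM.

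Whether the lineages differed in the effect of GLUT3 loss was tested over all 12 libraries. The difference passed for 0 of the 9 members, against 0.638% of all genes tested (0.35% higher, 0.288% lower). At an unadjusted p under 0.05 there were 4, Klrc1, Klrc2, Klrd1 and Cd8a, and voom on the recovered reads called 0 as well. The differences, Th17 minus Th1, were -1.28 ± 0.392 for Klrc1 (limma adjusted p = 0.316), -1.14 ± 0.418 for Klrc2 (limma adjusted p = 0.532) and -0.94 ± 0.329 for Klrd1 (limma adjusted p = 0.464). All 3 intervals lay below 0, at -2.14 to -0.43, -2.05 to -0.23 and -1.66 to -0.23. The comparisons of genotype and of lineage share libraries and are given side by side only.

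Libraries of the 2 genotypes did not overlap for 8 of the 9 tested members in either lineage, against 36.7% of all genes tested in Th17 and 47.1% in Th1 cells. The exceptions were Cd8b1 in Th17 and Hcst in Th1 cells. Tyrobp in Th17 and Cd8a in Th1 cells passed the filter through the genotype in which they are high. The members were also chosen with earlier results of these data known, so this count is a description. In Th1 cells all 8 calls were made under each of the 13 alternatives, which included leaving out each library. In Th17 cells the calls depended on single libraries: those of Klrk1 and Tyrobp were lost without wild-type replicate 2 or 3 (adjusted p up to 0.0514 and 0.0556), that of Fcer1g also without GLUT3-deficient replicate 1 (up to 0.0713), and those of Klrc1 and Klrc2 also without GLUT3-deficient replicate 1 or 3 (up to 0.131 and 0.125). The number of members called in Th17 cells was 0 without wild-type replicate 2 or 3, 2 without GLUT3-deficient replicate 1, 3 without GLUT3-deficient replicate 3 and 7 without GLUT3-deficient replicate 2.

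Neighbours of the receptor genes were set beside them. Within 1 Mb of a Klr member lie 104 other genes, of which 23 were tested in Th17 cells, with 2 higher and 1 lower, and 24 in Th1 cells, with 6 higher and 3 lower. That is 13.0% of them in Th17 cells, against 7.3% of all genes tested, and 37.5% in Th1 cells, against 31.3%, a share near the background. Of the genes called higher, Klrb1b in Th17 and Klre1 and Klra5 in Th1 cells passed the filter through the GLUT3-deficient libraries. Their calls add nothing to these counts. BC035044, also called higher in Th1 cells, averaged 1.94 TPM in GLUT3-deficient and 0.58 TPM in wild-type Th1 libraries. With that wild-type mean it too needed GLUT3-deficient libraries to pass the filter, and its call likewise adds nothing. Cd69, an early activation antigen 6.46 Mb from Slc2a3, averaged 339 TPM in GLUT3-deficient and 74.5 TPM in wild-type Th17 cells, and 385 TPM in GLUT3-deficient and 112 TPM in wild-type Th1 cells, with log2 fold changes of 2.17 (limma adjusted p = 0.00154) and 1.77 (limma adjusted p = 0.000163). The long non-coding gene 2310001H17Rik beside it fell, by 1.47 in Th17 cells (limma adjusted p = 0.0235, not called on leaving out any library but GLUT3-deficient replicate 2) and by 1.23 in Th1 cells (limma adjusted p = 0.000863). The pseudogene Rpl18-ps2 fell by 0.90 in Th1 cells (limma adjusted p = 0.00255), and Klre1, a lectin-like receptor gene next to Klrd1, rose by 1.06 there (limma adjusted p = 0.00544). Cd69 and 2310001H17Rik, which moved in opposite directions, are neighbours. Whether the distance to Slc2a3 has a part in these changes was not tested.

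**Figure D4:**
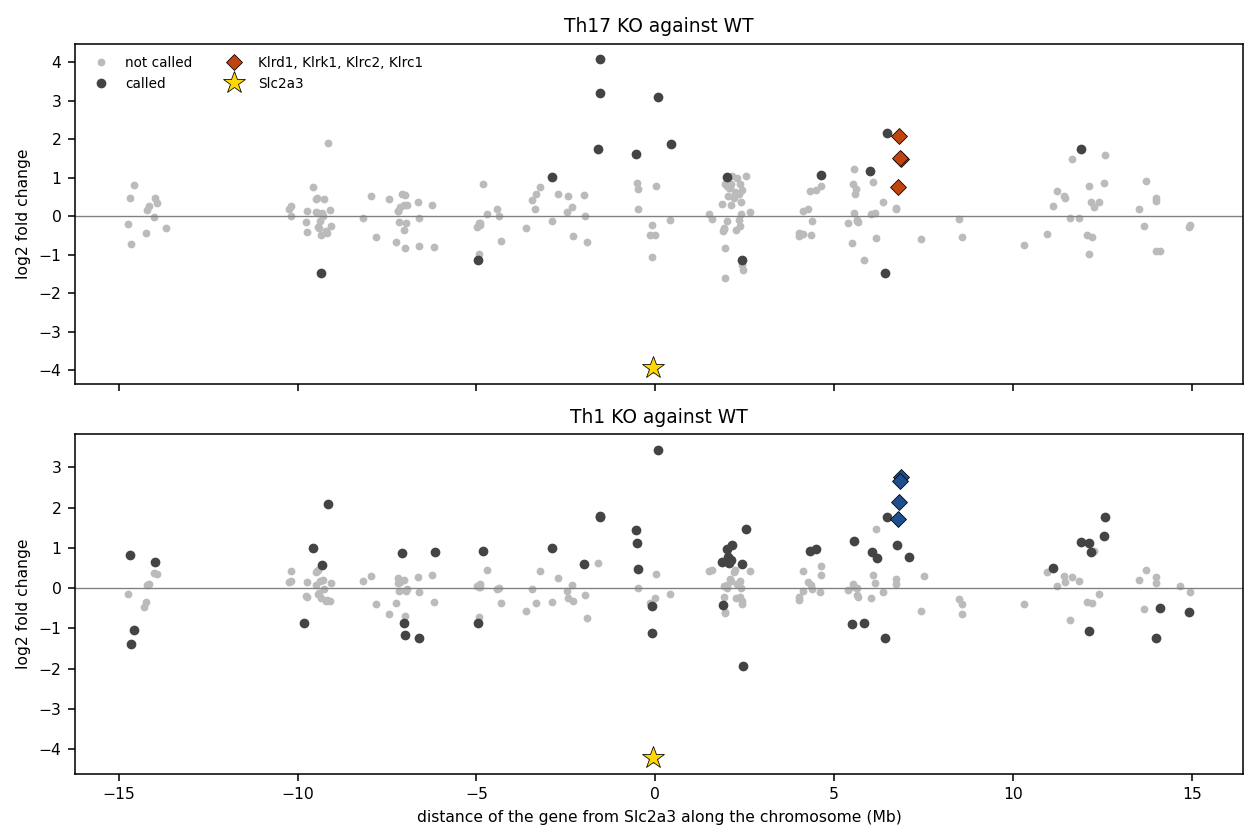
Log2 fold change of GLUT3-deficient over wild-type cells (vertical axis) for tested genes along chromosome 6, by their distance from Slc2a3 in Mb (horizontal axis): grey points were not called, dark points were called, diamonds are Klrd1, Klrk1, Klrc2 and Klrc1, the star is Slc2a3. The diamonds lie 6.79 to 6.86 Mb away among called and uncalled genes.

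Related genes were counted in 5 lists, to be read against the 7.3% of all genes called in Th17 and 31.3% in Th1 cells. Genes of these lists that reached 1 TPM in all 3 GLUT3-deficient libraries and in fewer than 3 wild-type libraries passed the filter through the genotype in which they are high, and their calls add nothing to a list's count. Of 22 other lectin-like NK receptor genes 5 were tested in each lineage, and 3 rose and 0 fell in each, with a median log2 fold change of 0.99 in Th17 and 0.78 in Th1 cells. All 3 calls in either lineage were of genes that passed through the GLUT3-deficient libraries. Klra7 stood the other way without overlap, at 0.470 to 1.13 TPM in GLUT3-deficient and 1.59 to 1.88 TPM in wild-type Th17 libraries (log2 fold change -0.60, limma adjusted p = 0.134), and at 1.88 to 3.21 TPM in GLUT3-deficient and 3.79 to 5.13 TPM in wild-type Th1 libraries (-0.56, limma adjusted p = 0.0613). Genes of this list too low to test also stood apart without overlap, in both directions. Klra17 had 0 reads in every GLUT3-deficient library, against 13 over the wild-type Th17 and 8 over the wild-type Th1 libraries. Klra6 in both lineages and Klra1 in Th1 cells were likewise lower in GLUT3-deficient libraries. More genes stood higher there: Klrc3 and Klri2 in both lineages, Klri1 and Klra5 in Th17 cells, and Klra4, Klrb1b and Klrg2 in Th1 cells. Klrg1, an inhibitory receptor of effector cells, averaged 3.13 ± 1.76 TPM in GLUT3-deficient and 0.298 ± 0.277 TPM in wild-type Th17 cells (log2 fold change 1.61, limma adjusted p = 0.0325), and 4.30 ± 1.38 TPM in GLUT3-deficient and 0.903 ± 0.230 TPM in wild-type Th1 cells (1.45, limma adjusted p = 0.00184). Klrb1b (1.18) and Klrg2 (0.99) also rose in Th17 cells, and Klre1 (1.06) and Klra5 (0.78) in Th1 cells. Klrb1b averaged at most 2.01 TPM and Klra5 at most 1.68 TPM in any group. Each Th17 call was lost on leaving out any wild-type library, those of Klrg1 and Klrg2 also with no filter or a pseudocount of 5 TPM, and the 3 genes fell below the filter when a GLUT3-deficient library was left out. So did Klra5 in Th1 cells.

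Of 20 NK and T cell receptor genes outside the lectin-like family 12 were tested in each lineage: 3 rose and 0 fell in Th17 cells (median 0.25), and 4 rose and 2 fell in Th1 cells (median 0.48), 25% and 50% of those tested. Pilrb1 in both lineages and Cd160 in Th17 cells passed through the GLUT3-deficient libraries, with no wild-type library at 1 TPM. Lilrb4a, an inhibitory receptor, averaged 142 ± 13.5 TPM in GLUT3-deficient and 56.4 ± 11.4 TPM in wild-type Th17 cells, and 363 ± 66 TPM in GLUT3-deficient and 108 ± 7.01 TPM in wild-type Th1 cells, with log2 fold changes of 1.33 in Th17 (limma adjusted p = 0.0166) and 1.73 in Th1 cells (limma adjusted p = 0.000192). Pilrb1, an activating receptor that signals through DAP12, rose by 1.08 in Th17 cells (limma adjusted p = 0.0124) and by 1.09 in Th1 cells (limma adjusted p = 0.00275), with wild-type means of 0.0667 and 0.731 TPM. Cd160 (1.63) rose in Th17 cells, Slamf1 (1.23) and Cd96 (1.32) rose in Th1 cells, and Slamf6 (-1.47) and Cd226 (-1.22) fell there. Leaving out wild-type replicate 2 or 3 ended the Th17 calls of Lilrb4a, Pilrb1 and Cd160. Pilrb1 in both lineages and Cd160 in Th17 cells fell below the filter when a GLUT3-deficient library was left out. Lilrb4a was also not called without GLUT3-deficient replicate 1 or 3, nor Cd160 without wild-type replicate 1, with no filter or with a pseudocount of 5 TPM. The Cd226 call in Th1 cells ended with no filter.

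Of 22 genes of signalling partners downstream of these adaptors, 20 were tested: 1 rose and 1 fell in Th17 cells (median 0.26), and 5 rose and 2 fell in Th1 cells (median 0.13). The shares called, 10% and 35%, were near the background, and Lat2 in both lineages and Plcg2 in Th1 cells reached 1 TPM in 2 of 3 wild-type libraries. Lat2, a scaffold of ITAM receptors, rose by 1.26 in Th17 cells (limma adjusted p = 0.0348) and by 1.11 in Th1 cells (limma adjusted p = 0.00421). Lat, the scaffold of the T cell receptor, fell by 1.09 in Th17 (limma adjusted p = 0.0224) and by 0.44 in Th1 cells (limma adjusted p = 0.0328). In Th17 cells both calls ended on leaving out any library but GLUT3-deficient replicate 2, and that of Lat2 also with no filter. In Th1 cells Lat was not called without any GLUT3-deficient library or wild-type replicate 2 or 3. Cd3g (0.69), Plcg2 (0.91), Cd3e (0.43) and Sh2d1a (0.79) rose in Th1 cells, where Zap70, the kinase of the T cell receptor, fell by 0.66. The calls of Plcg2 and Zap70 ended without GLUT3-deficient Th1 replicate 2, that of Plcg2 also without replicate 3 or with no filter, and that of Zap70 without replicate 1. The model of all 12 libraries called none of Cd3g, Plcg2, Zap70 and Lat in Th1 cells. Of the genes listed with the ligands, 13 of 17 were found in the tables by symbol and 8 were tested in Th17 and 7 in Th1 cells, of which 4 and 5 rose and 0 fell (median 1.11 and 1.25). This list also holds H2-K1, H2-D1 and B2m, MHC class I genes other than the Qa-1 gene, and their calls are among those counted. Ulbp1, a ligand of NKG2D, averaged 10.9 ± 4.31 TPM in GLUT3-deficient and 2.66 ± 0.776 TPM in wild-type Th17 cells (log2 fold change 1.66, limma adjusted p = 0.0344), and 19.9 ± 2.53 TPM in GLUT3-deficient and 5.36 ± 0.267 TPM in wild-type Th1 cells (1.71, limma adjusted p = 0.000187). The MHC class I genes H2-K1 (1.32 in Th17, 1.36 in Th1), B2m (1.59 and 1.25) and H2-D1 rose in both lineages, and H2-T23, the Qa-1 gene, rose in Th1 cells (0.61). H2-D1 averaged 6712 TPM in GLUT3-deficient and 2572 TPM in wild-type Th17 cells, and 7353 TPM in GLUT3-deficient and 2821 TPM in wild-type Th1 cells. The Th17 calls of Ulbp1, H2-K1, B2m and H2-D1 were each lost without GLUT3-deficient replicate 1 or wild-type replicate 2 or 3, those of Ulbp1 and H2-D1 also without wild-type replicate 1, and those of Ulbp1 and B2m also without GLUT3-deficient replicate 3. With no filter the Th17 calls of Ulbp1, H2-D1 and B2m ended as well, and that of B2m with median-of-ratios scaling.

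Of 18 regulators of Cd8, Cd4 and the cytotoxic program found in the tables, 16 were tested in Th17 cells, with 1 higher and 0 lower (median 0.40), and 17 in Th1 cells, with 5 higher and 1 lower (median 0.46). The shares called, 6.25% and 35.3%, were near the background, and Eomes and Zeb2 in Th1 cells passed through the GLUT3-deficient libraries, with no wild-type library at 1 TPM. Both fell below the filter when a GLUT3-deficient library was left out. Prdm1 (1.30), Eomes (1.41), Tbx21 (1.01), Id2 (1.68) and Zeb2 (0.96), transcription factors of effector lymphocytes, rose in Th1 cells (limma adjusted p from 0.000896 to 0.00427). The model of all 12 libraries did not call Tbx21. The gene that fell there was Patz1 (-0.67), a repressor of Cd8, and the gene that rose in Th17 cells was Tox (1.71), both named because the counts are 1. The Patz1 call was lost without GLUT3-deficient replicate 1 or 2 or wild-type replicate 3, with no filter or in the model of all 12 libraries. The Tox call ended with no filter, with a pseudocount of 5 TPM, and on leaving out any library but GLUT3-deficient replicate 2. Runx3 and Zbtb7b, which set the CD8 and CD4 fates in the thymus, did not pass in either lineage (chosen after their values were seen). On leaving out single libraries, the calls in the 5 lists, in the order given, numbered 0 to 1, 0 to 3, 0 to 3, 0 to 4 and 0 to 3 in Th17 cells, and 2 to 3, 5 to 8, 3 to 7, 4 to 5 and 3 to 9 in Th1 cells.

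Patterns over the 12 libraries were compared by Pearson's r on log2(TPM + 1) among 7983 genes that averaged 5 TPM or more. The libraries share genotype and lineage groups, so r is a description. Klrc1 and Klrc2 were each other's nearest gene (0.994), and the next for both was Hbegf (0.971 for Klrc1), followed by Ccl3 for Klrc1 (0.969) and Cdc42ep3 for Klrc2 (0.968). Klrk1 ran with P2ry14 (0.986), Ccl4 (0.986) and Tmem163 (0.984), Klrd1 with Dusp14 (0.939), Iltifb (0.931) and Scoc (0.925), and Fcer1g with Pim1 (0.949), Ifitm1 (0.948) and Msc (0.946). Hcst ran with Khk (0.939), Crip1 (0.938) and Josd2 (0.927), and Cd8b1 with Mrpl48 (0.930), Manbal (0.929) and Ascc1 (0.926). Among the members, Klrd1 and Fcer1g had r = 0.846, while Hcst and Cd8b1 had r = 0.433 with each other and -0.802 to -0.565 with the 4 receptor genes and Fcer1g.

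Markers of other cells differed between the genotypes in the same libraries. Over all genes tested, 7.3% were called in Th17 cells (4.6% higher) and 31.3% in Th1 cells (17.6% higher), and the counts are to be read against these shares. Of 7 gamma delta T cell markers, 4 of 5 tested rose in Th17 and 5 of 5 in Th1 cells, where Trdv4 passed the filter through the GLUT3-deficient libraries. Their summed level was 167 to 262 TPM in GLUT3-deficient and 17.5 to 21.1 TPM in wild-type Th17 libraries, and 174 to 278 TPM in GLUT3-deficient and 15 to 33.7 TPM in wild-type Th1 libraries. Trdc, the constant region of the T cell receptor delta chain, averaged 63.9 ± 15.6 TPM in GLUT3-deficient and 4.46 ± 0.365 TPM in wild-type Th17 cells, and 55.7 ± 11.6 TPM in GLUT3-deficient and 5.49 ± 2.35 TPM in wild-type Th1 cells. Of 8 NK cell markers 1 of 4 tested rose in Th17 (Gzma) and 3 of 4 in Th1 cells (Gzma, Klre1 and Eomes, of which Klre1 and Eomes passed the filter through the GLUT3-deficient libraries), while Klra7 of the same list stood the other way, as given above. Gzma averaged 34.3 TPM in GLUT3-deficient and 6.01 TPM in wild-type Th17 cells, and 38.0 TPM in GLUT3-deficient and 11.4 TPM in wild-type Th1 cells. The list had sums of 41.4 to 56.4 TPM in GLUT3-deficient and 9.16 to 14.6 TPM in wild-type Th17 libraries, and 36.5 to 58.2 TPM in GLUT3-deficient and 15.4 to 18.7 TPM in wild-type Th1 libraries. Ncr1, the gene of the NK receptor NKp46, was low, at 0.936 to 1.37 TPM in GLUT3-deficient and 0 to 0.0599 TPM in wild-type Th17 libraries, and 0.933 to 1.77 TPM in GLUT3-deficient and 0 to 0.0671 TPM in wild-type Th1 libraries. Of 6 NKT and innate-like markers, which include Klrb1c, 2 of 4 tested rose in Th17 and 3 of 4 in Th1 cells, with sums of 139 to 163 TPM in GLUT3-deficient and 68.5 to 101 TPM in wild-type Th17 libraries, and 371 to 439 TPM in GLUT3-deficient and 180 to 214 TPM in wild-type Th1 libraries. Nearly all of this sum is Ly6c2, Slamf1 and Il18r1, which averaged 229.5, 133.8 and 39.6 TPM in GLUT3-deficient Th1 cells. Cd1d1 averaged 0.96 TPM in GLUT3-deficient and 1.37 TPM in wild-type Th17 cells, and 1.32 TPM in GLUT3-deficient and 0.908 TPM in wild-type Th1 cells. Zbtb16, which defines NKT cells, was at most 0.313 TPM in any library. The part of these cells in the levels of the NK receptors, Tyrobp and Fcer1g was not tested.

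Fcer1g and Tyrobp are also expressed by myeloid cells and mast cells. The counts called in these lists too stand against 7.3% of all genes tested in Th17 and 31.3% in Th1 cells. Of 7 mast cell and basophil markers 2 of 4 tested rose in Th17 and 4 of 4 in Th1 cells, but all 4 entered both tests through the GLUT3-deficient libraries, so these counts in part restate the filter. The list had sums of 26.0, 97.3 and 15.2 TPM in GLUT3-deficient and 3.67, 3.56 and 2.19 TPM in wild-type Th17 libraries, and 16.8, 64.2 and 15.6 TPM in GLUT3-deficient and 3.30, 3.44 and 2.56 TPM in wild-type Th1 libraries. Replicate 2 was the highest of both GLUT3-deficient groups for the sum of these markers, for Fcer1g and for Tyrobp, as it also was for Klrc1 and Klrc2. Of 11 macrophage and monocyte markers 1 of 4 tested rose in Th17 cells (Lyz2) and 0 of 2 in Th1 cells, with sums of 388 to 570 TPM in GLUT3-deficient and 454 to 501 TPM in wild-type Th17 libraries, and 366 to 416 TPM in GLUT3-deficient and 318 to 404 TPM in wild-type Th1 libraries. Nearly all of this sum is Cst3, which many cells express. Without Cst3 it was 18.7 to 43.2 TPM in GLUT3-deficient and 6.30 to 10 TPM in wild-type Th17 libraries, and 8.08 to 9.02 TPM in GLUT3-deficient and 4.23 to 5.93 TPM in wild-type Th1 libraries, with no overlap. In Th17 cells Lyz2 averaged 16.4 TPM in GLUT3-deficient and 2.96 TPM in wild-type libraries, Cd14 averaged 2.28 TPM in GLUT3-deficient and 0.623 TPM in wild-type libraries, and Mpeg1 averaged 3.79 TPM in GLUT3-deficient and 0.0241 TPM in wild-type libraries. C1qa was at 0 in every library and Adgre1, the F4/80 gene, at most 0.104 TPM. Of 7 neutrophil markers 1 of 2 tested rose in Th17 cells (S100a8, which passed through the GLUT3-deficient libraries) and 0 of 1 in Th1 cells, with sums of 4.01 to 5.12 TPM in GLUT3-deficient and 1.70 to 3.16 TPM in wild-type Th17 libraries, and 13.4 to 18.3 TPM in GLUT3-deficient and 6.82 to 11.7 TPM in wild-type Th1 libraries. The other tested marker, Cxcr2, stood the other way in Th17 cells, at 0.406 to 0.919 TPM in GLUT3-deficient and 1.31 to 3.00 TPM in wild-type libraries. Cxcr2 made up nearly all of the Th1 sums, with means of 15.7 TPM in GLUT3-deficient and 9.55 TPM in wild-type cells. None of 3 tested B cell markers passed in either lineage, with sums of 4.79 to 16.4 TPM in GLUT3-deficient and 7.92 to 12.1 TPM in wild-type Th17 libraries, and 3.59 to 38.3 TPM in GLUT3-deficient and 4.79 to 10.6 TPM in wild-type Th1 libraries. Of 6 dendritic cell markers none was high enough to test, with Siglech and Clec9a at 0 in every library and sums of 0.916 to 2.87 TPM in GLUT3-deficient and 0.324 to 0.644 TPM in wild-type Th17 libraries, and 1.4 to 1.77 TPM in GLUT3-deficient and 0.335 to 0.709 TPM in wild-type Th1 libraries. Of 7 T cell markers (Cd4, Cd3e, Cd3d, Cd3g, Trac, Cd5 and Cd28) 1 rose in Th17 and 5 in Th1 cells and 0 fell. Their sums were 5080 to 5660 TPM in GLUT3-deficient and 3600 to 4850 TPM in wild-type Th17 libraries. In Th1 cells they were 5540 to 5880 TPM in GLUT3-deficient and 3680 to 4320 TPM in wild-type libraries. Most of these genes are not particular to helper cells, so the sums do not measure the share of helper cells. The part of mast cells, macrophages or other cells in the levels of Fcer1g and Tyrobp was not tested.

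**Figure D5:**
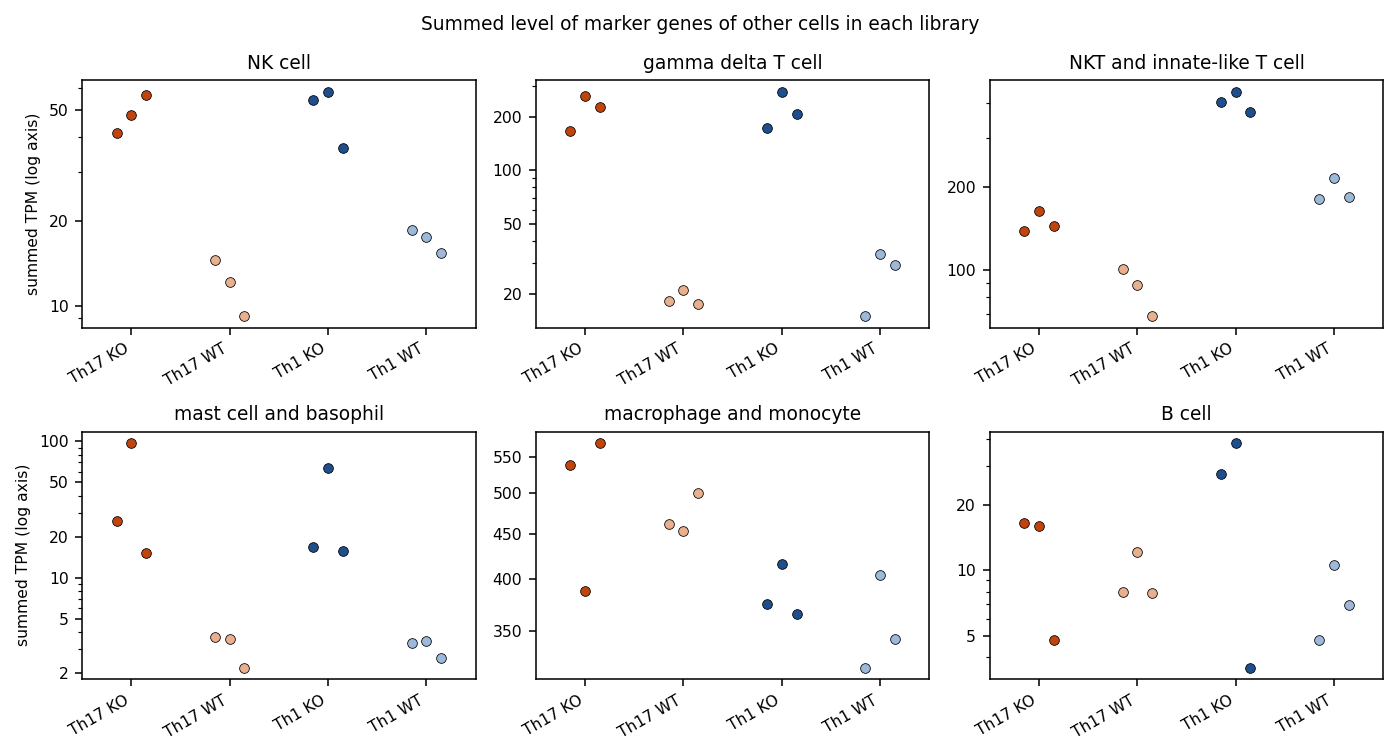
Summed TPM (vertical axes, log scale) of marker genes of 6 other cell types in each library. The gamma delta, NK, NKT and mast cell sums are higher in every GLUT3-deficient than in every wild-type library of the same lineage, while the B cell sums and the macrophage sums, which are nearly all Cst3, overlap between the genotypes in both lineages. The NKT sums are nearly all Ly6c2, Slamf1 and Il18r1.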

How the data were processed

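Total RNA was turned into cDNA with the SMART-Seq kit, fragmented with Nextera XT and sequenced from 1 end with reads of 75 bases, per the labels' protocols. Per the submitters' processing notes, STAR 2.7.2b, featureCounts 1.6.4 and GRCm38.p6 were used, besides cutadapt, bcl2fastq 2.20.0.422 and DESeq2 1.24.0. Their settings are not given. The authors deposited TPM in 1 table per lineage, per the file headers, with decimals written with a comma. They summed to 1000000 in each library. TPM times exon length gave whole reads, within 0.02 reads, for 100.0% of values in every library. The tables hold no counts, so those recovered reads served only for depth and for an alternative.

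A gene entered a fit when 3 or more of its libraries had at least 1 TPM. The values, as log2(TPM + 1), went into limma 3.58.1 (R 4.3.3) with a mean-variance trend, two-sided, with Benjamini-Hochberg adjustment over all genes tested and a threshold of 0.05. GLUT3-deficient and wild-type cells were compared within each lineage on 6 libraries. The difference of these effects, and Th17 against Th1 cells, were fitted on all 12. The steps were tested on simulated data. Sample titles gave the group and the number of each replicate. Same-numbered libraries deviated together in Th17 cells (correlations 0.137, 0.409 and 0.23) and between the wild-type groups (0.719, 0.256 and 0.532), so the numbers were taken to pair them there. Differently numbered libraries reached 0.105 in Th17 cells and 0.281 between the wild-type groups, so the pairing is uncertain. The main fits held no term for it, and the replicate block was fitted as an alternative. Replicates differed by more than counting noise, with a chi-square per gene of at least 13.1.

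The 10 members and all lists were chosen with earlier results of these data known. The other genes named are Slc2a3, up to 4 called genes of each related list and of the region within 1 Mb of a Klr gene by adjusted p, and the 3 genes most correlated with each member averaging 5 TPM or more. Others named because a count is small, and examples from marker lists, were chosen after their values were seen. Patz1 stood in its list under 2 symbols and was counted once. Alternatives were another pseudocount, no filter, median-of-ratios scaling, voom, the replicate block, a model of all 12 libraries and leaving out each library.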

Additional observations from a re-analysis of the deposited data

Results flagged for a closer look

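Cd226, which encodes the activating receptor DNAM-1 and belongs to the list of receptors outside the lectin-like family, changed differently in the 2 lineages by the test of the difference. It averaged 25.6 ± 3.94 TPM in GLUT3-deficient and 12.8 ± 0.865 TPM in wild-type Th17 cells (SD, n = 3 each), and 4.33 ± 0.522 TPM in GLUT3-deficient and 12.1 ± 4.99 TPM in wild-type Th1 cells. The difference of the log2 fold changes, Th17 minus Th1, was 2.16 ± 0.394 (limma adjusted p = 0.0346), with every GLUT3-deficient library above every wild-type library in Th17 cells and below it in Th1 cells. The call was lost in 12 of 18 alternatives, among them the replicate block, no filter on low TPM and leaving out any single library other than GLUT3-deficient Th17 replicate 2 or wild-type Th1 replicate 2, with differences of 1.603 to 2.52 and adjusted p up to 0.129.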

How the results depend on the processing

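No called member changed sign under any alternative. Over single members and comparisons, 675 alternative values kept their side of the threshold, 27 lost a call, 5 gained one and 13 changed sign, all of the last uncalled. Leaving out single libraries gave 0 to 7 called members in Th17 cells, 1 to 2 between wild-type lineages, and 109 to 2158, 2594 to 4587, 21 to 171, 449 to 1219 and 309 to 1582 called genes for Th17, Th1, the difference of effects, GLUT3-deficient lineages and wild-type lineages, against 1009, 4220, 93, 861 and 529. The model of all 12 libraries called 2933 genes in Th17 and 2568 in Th1 cells, and a pseudocount of 0.1 TPM called 44 for the difference of effects. Between wild-type lineages 1 member was called with a pseudocount of 0.1 TPM and 1 with no filter. With the replicate block 5, 8, 0, 3 and 2 members were called, as without it, and no member's call changed. Signs changed for the Klrk1 difference (0.29 with a pseudocount of 0.1 TPM, 0.30 with voom, -0.146 to 0.041 over left-out libraries), the Fcer1g difference (-0.001 to 0.59), Th17 against Th1 in GLUT3-deficient cells for Fcer1g (-0.079 with median-of-ratios scaling, -0.007 with voom, -0.23 to 0.36), Tyrobp (-0.26 to 0.12) and Hcst (-0.27 to 0.004), and in wild-type cells for Cd8b1 (-0.067 with median-of-ratios scaling, -0.14 to 0.24). That scaling moved the median log2 fold change of all genes between lineages to -0.04, against 0.13, in GLUT3-deficient cells and to -0.003, against 0.14, in wild-type cells, and the share of calls that were higher to 45.5%, against 56.7%, and to 37.2%, against 51.0%. The causes were not tested. Depth limits Klrb1c, Tyrobp and Cd8a most.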
